A study of Mus musculus with 2 samples.

Results

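The voltage-gated calcium channel genes described here are 10 mouse genes: Cacna1a, Cacna1b, Cacna1c, Cacna1d, Cacna1e, Cacna1g, Cacna1h, Cacna1i, Cacna2d1 and Cacna2d2. They were chosen by gene name, not by a threshold on these data, and all 10 are among the 21938 protein-coding genes of GENCODE M21 that were measured. Chromatin accessibility was measured by DNase-seq in 2 libraries from female mice of the hybrid strain B6CASTF1/J, aged 14 days. The tissue was the left cerebral cortex. The labels name no treatment and no mutation. Both libraries belong to 1 group, so no comparison between conditions exists and no p-value was computed. The sample labels carry different numbers, 1 per library, but 1 shared donor record. The libraries were taken as coming from 2 mice, which is an assumption, and the spread between them may be technical.

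Voltage-gated calcium channels open when the membrane is depolarised and let calcium into the cell. Each channel is built around a pore-forming alpha-1 subunit, encoded by a Cacna1 gene, and high-voltage-activated channels also carry an alpha-2-delta subunit, encoded by a Cacna2d gene, and a beta subunit. In neurons, L-type channels couple activity to gene expression, P/Q-, N- and R-type channels trigger transmitter release and shape dendritic calcium, and T-type channels open near rest and support burst firing. The pore-forming genes arose by duplication from common ancestors, so paralogs can be compared for how their regulatory DNA is laid out.

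DNase I cuts open chromatin, and a peak of such cuts is called a DNase I hypersensitive site (DHS). Its signal is the height value that the authors deposited for it, with no unit stated. A footprint is a short stretch that the authors called as protected from DNase I inside accessible DNA. Replicate 1 held 90059 peaks and 199455 footprints, and replicate 2 held 175597 peaks and 416840 footprints. The tissue label was checked on marker genes: 5 of 5 pan-neuronal and 6 of 6 cortical glutamatergic markers had a promoter DHS in both libraries, against 0 of 4 cerebellar and hindbrain markers. GABAergic interneuron markers had one at 2 of 4, astrocyte markers at 3 of 4, oligodendrocyte markers at 2 of 4, microglial markers at 2 of 4, endothelial and mural markers at 1 of 4 and muscle markers at 1 of 4. In bulk tissue, accessibility in fewer cells and lower accessibility per cell cannot be told apart.

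All 10 members had a peak in both libraries within 1 kb of at least 1 annotated transcription start site (TSS), beside 62.7% of all protein-coding genes. These genes carry 83 distinct start sites, 3 to 14 each, against a median of 3 for protein-coding genes, and each start site adds a further window in which a peak can fall. With the start sites of protein-coding transcripts alone, 9 of 10 members had such a peak, beside 61.4% of genes, and the exception was Cacna1e. In the stricter peak lists Cacna1e was again the exception, beside 57.2% of genes. With the most 5' start of each gene alone, 6 of 10 had one, beside 57.6% of genes, and Cacna1a, Cacna1c, Cacna1d and Cacna1e lacked it. The mean promoter signal over both libraries, taken at each member's highest peak, had a median of 1.40 and ranged between 0.645 and 3.69. The median over the 13757 accessible protein-coding genes was 2.33, with quartiles of 1.21 and 3.98. Only Cacna1a and Cacna1b lay above that median, and Cacna1a did so through a start that yields no protein.

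Joined where they overlap, the 1 kb surroundings of the start sites formed 52 windows, and 14 of them held a peak in both libraries, beside 36.4% of the windows of all protein-coding genes. Of 23 windows with a start of a protein-coding transcript, 9 held a peak in both libraries, 5 in 1 library and 9 in neither; 47.8% of all such windows of protein-coding genes held a peak in both. Of 29 windows whose transcripts are all non-coding, such as retained introns, 5 held a peak in both libraries and 19 in neither, beside 10.7% with a peak in both over all genes. Every member but Cacna1e thus had exactly 1 protein-coding start cluster that was accessible in both libraries.

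**Figure D1:**
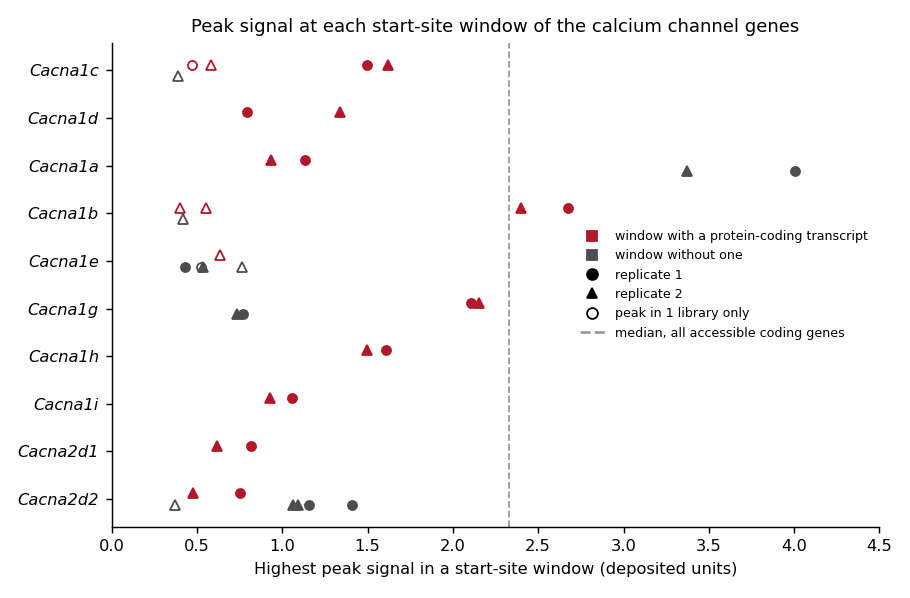
Highest peak signal (horizontal axis, deposited units) in each start-site window of the 10 genes, with circles for replicate 1 and triangles for replicate 2. Red marks windows with a protein-coding transcript, grey the others, and open symbols a peak in 1 library only; Cacna1a at 4.01 and 3.37 lies highest, and the dashed line at 2.33 is the median of all accessible protein-coding genes.

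The L-type pore genes Cacna1c and Cacna1d shared 1 layout: the most 5' start had no peak and an internal start had one in both libraries. Cacna1c encodes the main L-type pore of heart and brain and is known for alternative first exons. It spans 609 kb of chromosome 6, on the minus strand (chr6:118587240-119196418, coordinates in mm10 throughout), and has 27 transcripts in 8 start windows. At its most 5' window, which 4 protein-coding transcripts use, neither library had a peak. At the second window, 87.8 kb downstream and used by 12 protein-coding transcripts, the signal was 1.50 in replicate 1 and 1.62 in replicate 2, so the libraries differed little there. In replicate 2 that window held 5 peaks and in replicate 1 it held 1, and 78.9% and 18.0% of its bases were listed at a cleavage-rate false discovery rate of at most 0.05. The highest peak lay 748 bp upstream of the nearest start in replicate 2 and 642 bp upstream in replicate 1. With windows of 500 bp, which miss this peak of replicate 2, the mean signal of Cacna1c was 1.04 in place of 1.56. Other coding windows of Cacna1c held a peak in 1 library: 0.470 in replicate 1 at 116 kb, and 0.582 in replicate 2 at 416 kb.

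Cacna1d encodes the L-type pore that opens at less depolarised potentials. It spans 452 kb of chromosome 14, also on the minus strand (chr14:30039939-30491455). Its most 5' window had no peak in either library. The second window, 138 kb downstream and used by 4 protein-coding transcripts, gave 0.794 in replicate 1 and 1.34 in replicate 2, a wider spread than at Cacna1c. The highest peak there lay 140 bp downstream of the nearest start in replicate 1 and 160 bp downstream in replicate 2. All 5 further windows of Cacna1d, each with 1 non-coding transcript, were without a peak.

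The paralogs also share a neighbour. Dcp1b, on chromosome 6, and Dcp1a, on chromosome 14, encode subunits of the messenger RNA decapping complex, and each starts inside the first part of its channel gene on the opposite strand. Dcp1b overlaps Cacna1c by 21.2 kb and Dcp1a overlaps Cacna1d by 11.9 kb. A gene-body DHS, as used here, lies inside the gene and over 1 kb from each of its own starts. By the mean over both libraries, the highest of these in each gene was at the Dcp1 start. In Cacna1c, chr6:119175061-119175320, 62 bp from the Dcp1b start, had 2.17 in replicate 1 and 2.25 in replicate 2; replicate 1 alone had a higher site elsewhere. In Cacna1d, chr14:30479421-30479700, 26 bp from the Dcp1a start, had 4.70 in replicate 1 and 3.78 in replicate 2, the highest in each library. Both lie between the most 5' start, which had no peak, and the accessible internal start of the channel gene. An alpha-2-delta gene lies on the same chromosome in both cases, Cacna2d4 40.1 kb beyond the 5' end of Cacna1c and Cacna2d3 318 kb beyond the 3' end of Cacna1d.

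The peak upstream of the internal start of Cacna1c is shown because it is the highest of that window in both libraries. It contains no annotated start, and in replicate 1 it was the only peak of the window. Capitals mark bases inside footprints of both libraries. The stretch is chr6:119109201-119109420, minus strand, from the RefSeq GRCm38.p6 assembly, the part of the peak that both libraries called. None of its bases lies in an annotated untranslated region.
Cacna1c upstream of the internal start: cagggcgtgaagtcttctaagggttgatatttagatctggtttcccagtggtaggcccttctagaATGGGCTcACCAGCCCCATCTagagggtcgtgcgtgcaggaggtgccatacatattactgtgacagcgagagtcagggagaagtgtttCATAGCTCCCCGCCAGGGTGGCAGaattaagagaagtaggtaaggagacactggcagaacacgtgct

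Among the P/Q-, N- and R-type pore genes, the coding start was high in Cacna1b, intermediate in Cacna1a and called in only 1 library in Cacna1e. Cacna1b, the N-type pore of presynaptic terminals, spans 159 kb of chromosome 2 on the minus strand. Its most 5' window, used by 5 protein-coding transcripts, had a signal of 2.67 in replicate 1 and 2.40 in replicate 2, the highest coding start of the 10 genes. The peak centre lay 139 bp upstream of the nearest start in replicate 1 and 109 bp upstream in replicate 2. Its other coding windows held no peak or, in replicate 2, peaks of 0.553 and 0.403.

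Cacna1a encodes the P/Q-type pore, the main calcium source of fast transmitter release at many central synapses; its mutation causes ataxia and absence seizures in tottering mice. It spans 252 kb of chromosome 8 on the plus strand. The most 5' window holds 1 non-coding transcript and had no peak. The coding window, 26.9 kb downstream, had 1.13 in replicate 1 and 0.936 in replicate 2, and the highest peak there was centred 823 and 863 bp upstream of the nearest start. The highest start-window peak of all 10 genes, 4.01 in replicate 1 and 3.37 in replicate 2, lay at the other end of Cacna1a. It was chr8:84639401-84639740, 251 kb from the most 5' start, 570 to 580 bp downstream of a non-coding transcript start and inside a coding exon near the end of the gene. In the part that both libraries called, 80.4% of bases were G or C, with 58 CpG sites in 280 bp. The DHS held 8 footprints of replicate 1 and 6 of replicate 2.

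Cacna1e encodes the R-type pore and spans 494 kb of chromosome 1 on the minus strand. No coding start of Cacna1e was accessible in both libraries. At the coding window with 2 transcripts, 158 kb from the most 5' start, replicate 2 had 3 peaks of up to 0.637 and replicate 1 had none. Its highest start-window signals, 0.524 in replicate 1 and 0.767 in replicate 2, fell at different non-coding starts. The window with a peak in both libraries was at a retained-intron start 408 kb downstream, with 0.432 in replicate 1 and 0.538 in replicate 2, and in the stricter peak lists only replicate 2 had a peak there.

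The sequences of the Cacna1b start peak and of the Cacna1a peak in the last part of the gene are shown because they are the highest of the coding and of the non-coding start windows. Capitals mark bases inside footprints of both libraries. The stretches are chr2:24763221-24763360, minus strand, upstream of the start, and chr8:84639421-84639700, plus strand, both from the RefSeq GRCm38.p6 assembly. In the Cacna1b stretch the capitals hold the SP/KLF word GGGGCGGGG, and in the Cacna1a stretch the second run of capitals overlaps 2 matches of the NRF1 word GCGCATGCG, which lay inside a footprint of replicate 1 and overlapped one of replicate 2.
Cacna1b start: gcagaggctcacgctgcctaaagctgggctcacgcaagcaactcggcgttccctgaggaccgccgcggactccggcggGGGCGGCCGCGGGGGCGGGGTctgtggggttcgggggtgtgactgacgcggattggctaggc
Cacna1a coding exon: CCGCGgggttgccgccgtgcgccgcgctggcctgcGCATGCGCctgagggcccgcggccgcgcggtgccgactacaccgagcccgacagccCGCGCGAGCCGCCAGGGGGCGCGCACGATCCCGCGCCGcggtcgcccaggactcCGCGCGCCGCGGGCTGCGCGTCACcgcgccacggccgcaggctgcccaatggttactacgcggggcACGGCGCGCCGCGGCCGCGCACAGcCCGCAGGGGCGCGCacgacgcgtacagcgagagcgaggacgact

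The T-type pore genes Cacna1g, Cacna1h and Cacna1i were each open at their most 5' start. Cacna1g, which supports burst firing in thalamic neurons, is on chromosome 11 (chr11:94408391-94474198, minus strand). Its start window, used by 11 protein-coding transcripts, had 2.10 in replicate 1 and 2.15 in replicate 2, in a single peak centred 223 and 233 bp upstream of the nearest start. Cacna1h, on chromosome 17, had 1.61 in replicate 1 and 1.50 in replicate 2 at its start, with the highest peak 468 bp upstream in both libraries. Cacna1i, on chromosome 15, had 1.06 in replicate 1 and 0.931 in replicate 2, in a peak centred 17 bp upstream of the nearest start in both. The order was thus Cacna1g, Cacna1h and Cacna1i, and it was the same in each library. The start means of the 3 genes were 2.13 ± 0.0330, 1.55 ± 0.0794 and 0.993 ± 0.0883 (SD, n = 2 libraries), gaps several times the SD between libraries. With windows of 2 kb, Cacna1i had 1.50 ± 0.286 while Cacna1g and Cacna1h were unchanged. Cacna1h and Cacna1i then did not differ beyond the spread. Cacna1h and Cacna1i each had a further protein-coding window near the 3' end, and neither held a peak in either library.

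The Cacna1g start peak is shown because it is the highest among the T-type genes. It lies between genes, upstream of the start, at chr11:94474321-94474540 on the minus strand of the RefSeq GRCm38.p6 assembly. Capitals mark bases inside footprints of both libraries.
Cacna1g start: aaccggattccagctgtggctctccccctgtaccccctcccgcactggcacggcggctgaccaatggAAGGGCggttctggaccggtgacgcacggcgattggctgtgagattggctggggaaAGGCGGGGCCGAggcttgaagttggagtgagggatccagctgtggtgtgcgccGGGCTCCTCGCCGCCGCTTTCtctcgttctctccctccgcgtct

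The alpha-2-delta genes Cacna2d1 and Cacna2d2, whose products promote channel trafficking to the membrane and bind gabapentin, had the lowest coding start signals among the 9 members with such a start called in both libraries. Cacna2d1 spans 440 kb of chromosome 5, and its most 5' window, used by 8 protein-coding transcripts, had 0.817 in replicate 1 and 0.617 in replicate 2. These values belong to different peaks, centred 520 bp upstream of the nearest start in replicate 1 and 1130 bp downstream in replicate 2. At the upstream site replicate 2 had 0.597. The window held 4 peaks in replicate 1 and 3 in replicate 2, and 76.6% and 91.0% of the window's bases were listed at the 0.05 level, the largest shares of any member window. Cacna2d2, the gene mutated in ducky mice, spans 130 kb of chromosome 9. Its coding start had 0.755 in replicate 1 and 0.478 in replicate 2, in 1 peak of 240 and 220 bp. Non-coding starts inside Cacna2d2 were higher: 1.16 and 1.06 at 110 kb, and 1.41 and 1.10 at 127 kb. At the coding starts, the mean signals of 0.717 ± 0.141 and 0.617 ± 0.196 (SD, n = 2 libraries) did not differ by more than the spread between libraries.

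Ranked by the mean signal at coding starts, the order was Cacna1b, Cacna1g, Cacna1c, Cacna1h, Cacna1d, Cacna1a, Cacna1i, Cacna2d1 and Cacna2d2, with Cacna1e unranked. Cacna1c (1.56 ± 0.0868) and Cacna1h (1.55 ± 0.0794) did not differ beyond their spread, and neither did Cacna1d (1.07 ± 0.386), Cacna1a (1.03 ± 0.139) and Cacna1i (0.993 ± 0.0883; SD, n = 2 libraries for each). The median of the 9 values was 1.07, below the 2.34 of the 13408 protein-coding genes accessible at such starts.

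Coding start windows with and without a peak differed in CpG content. The measure is the CpG count within 500 bp of the starts over the count that the C and G content predicts. In the 9 coding windows with a peak in both libraries the ratio had a median of 0.888 and ranged between 0.663 at Cacna1g and 1.03 at Cacna1c. In the 9 coding windows with no peak it had a median of 0.259 and did not exceed 0.371, the value of the most 5' start of Cacna1d. These groups of windows did not overlap, but the 5 coding windows with a peak in 1 library lay between 0.165 and 0.620. Over all protein-coding genes the coding windows with a peak in both had a median of 0.679, with quartiles of 0.506 and 0.804. Those with none had a median of 0.199, with quartiles of 0.128 and 0.293, so the difference was not particular to the members. Within the L-type pair, the most 5' start of Cacna1c had 0.280, against 1.03 at its accessible internal start, and the most 5' start of Cacna1d had 0.371 against 0.908. The coding window of Cacna1e, with peaks in replicate 2 alone, had 0.620, just under the lowest value of the open starts. The non-coding start of Cacna1a near its 3' end had 0.802, the highest of the non-coding windows. Non-coding windows with and without a peak overlapped in this ratio. Their medians were 0.263 in the 5 with a peak in both libraries and 0.233 in the 19 with none. Over all protein-coding genes these medians were 0.281 and 0.228. The lowest ratio of the 52 windows, 0.0596, was at the retained-intron start of Cacna1e called in both libraries. The ratio describes the bases around the starts and not those of the peaks. The coding exon peak of Cacna1a lay mostly beyond the 500 bp, the highest peak of the Cacna1c internal start almost wholly so, and the peak that both libraries called at the coding start of Cacna1a wholly so. In the stretch of the Cacna1c peak shown above, 52.3% of bases were G or C, with 6 CpG sites in 220 bp.

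**Figure D2:**
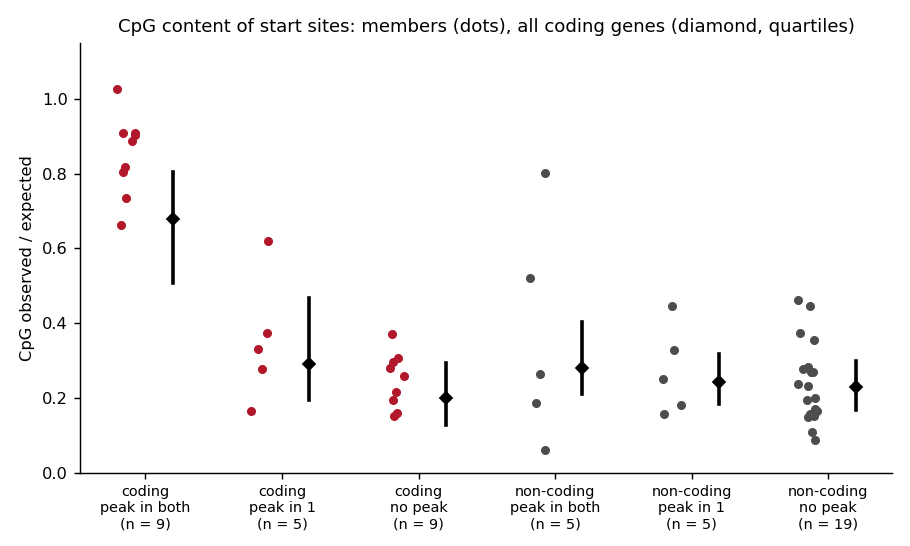
CpG observed over expected within 500 bp of the starts (vertical axis) for the 52 start windows of the members, as dots, grouped by coding or non-coding transcripts and by peak calls in both, 1 or neither library. Diamonds and bars give the median and quartiles over all protein-coding genes; the 9 open coding windows of the members lie between 0.663 and 1.03, and the 9 with no peak at or below 0.371.

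Inside the genes, 119 DHSs found in both libraries lay over 1 kb from every start of their own gene, and 112 of them were intronic. All members had at least 1, beside 38.9% of all protein-coding genes and 92.7% of those over 100 kb long. The count per gene was highest in Cacna1c with 24, Cacna1d with 22 and Cacna1e with 19, the longest members, and lowest in Cacna1h with 3 and Cacna1g with 4, the shortest. Per 100 kb of gene, the members had a median of 4.96 and ranged between 2.27 in Cacna2d1 and 7.20 in Cacna1i. All 10 exceeded the median of all protein-coding genes, which is 0 because only 38.9% of them had such a DHS. The median length of protein-coding genes was 17.4 kb. Of the 10, 9 exceeded the median of 2.43 for genes over 100 kb, and Cacna2d1 did not. Cacna1g and Cacna1h, among the 9, are themselves shorter than 100 kb, at 65.8 and 59.5 kb. Among the members over 100 kb long, the density was at or above that of 96.3% of long genes in Cacna1i, 92.6% in Cacna2d2, 90.0% in Cacna1a, 85.0% in Cacna1d, 81.1% in Cacna1b, 76.6% in Cacna1c, 75.4% in Cacna1e and 47.3% in Cacna2d1. The alpha-2-delta paralogs were far apart, with 6.17 per 100 kb in Cacna2d2 from 8 DHSs and 2.27 in Cacna2d1 from 10. Leaving out the 4 DHSs within 1 kb of a start of another gene gave 115 DHSs and a median of 4.85 per 100 kb. In single libraries, 132 peaks of replicate 1 and 283 of replicate 2 met the same rule, so the count depends on the library.

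**Figure D3:**
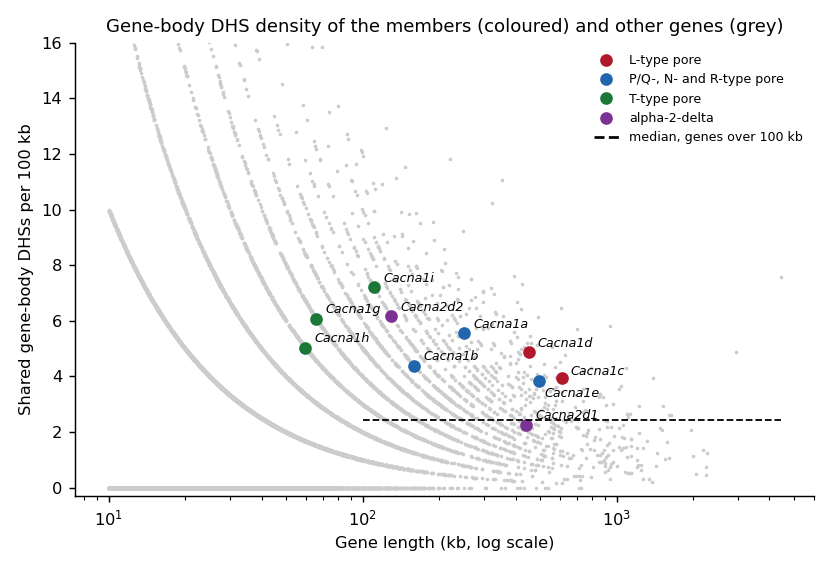
DHSs found in both libraries per 100 kb of gene (vertical axis) against gene length (horizontal, kb, log scale). The 10 members are coloured by channel type, and the other protein-coding genes of at least 10 kb are in grey, 14164 genes with the members. Density falls in steps because counts are whole numbers, and 174 genes lie above the axis limit of 16. Of the members, 9 lie above 2.43, the dashed median for genes over 100 kb, and Cacna1g and Cacna1h among them are shorter than 100 kb.

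By the mean over both libraries, the highest gene-body DHS of the other 8 members was intronic and over 1 kb from every annotated start. In Cacna1a it was chr8:84494801-84495000, 106 kb from the most 5' start, with 3.84 in replicate 1 and 4.16 in replicate 2. In Cacna1e it was chr1:154729661-154729880, 3.42 kb upstream of the coding start that replicate 2 alone called, with 3.61 in replicate 1 and 2.45 in replicate 2. The next in Cacna1e, chr1:154788201-154788360, averaged 2.66 ± 0.472 (SD, n = 2 libraries), with 2.33 in replicate 2 and the higher value in replicate 1. These intronic sites of Cacna1a and Cacna1e exceeded every coding start of their gene in each library. In Cacna1b the order was the other way round: its highest, chr2:24755401-24755620, had 1.17 in replicate 1 and 1.12 in replicate 2, both below its start. Away from the Dcp1 starts, the highest in Cacna1c was chr6:119104381-119104560, 3.50 kb from the open internal start, with 2.76 and 1.57 in replicates 1 and 2. In Cacna1d it was chr14:30137061-30137260, 354 kb from the most 5' start, with 3.17 and 2.34. By the mean and in replicate 1, the L-type pair thus had these sites at different distances. The site was next to the open start in Cacna1c and far downstream of it in Cacna1d. In replicate 2 the highest such site of Cacna1c was instead chr6:118977781-118978020, 219 kb from the most 5' start. It had 2.13 there and 1.33 in replicate 1.

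Among the T-type genes, the highest gene-body DHS of Cacna1g was chr11:94468841-94469100, 4.67 kb from the nearest start, with 1.86 in replicate 1 and 2.66 in replicate 2. That of Cacna1h was chr17:25397921-25398120, with 2.36 in replicate 1 and 1.10 in replicate 2, a difference of more than 2-fold. That of Cacna1i was chr15:80289501-80289720, 2.08 kb from the nearest start, with 1.70 in replicate 1 and 1.30 in replicate 2. The means of these sites were 2.26 ± 0.564 in Cacna1g, 1.73 ± 0.893 in Cacna1h and 1.50 ± 0.286 in Cacna1i (SD, n = 2 libraries). Neither library alone had this order, as Cacna1h was the highest in replicate 1 and the lowest in replicate 2. These T-type means did not differ beyond the spread between libraries, which was wider than at the starts. In Cacna2d2 the highest were chr9:107514661-107514880, with 2.95 in replicate 1 and 1.82 in replicate 2, and chr9:107463621-107463820, with 2.71 and 1.93. Both exceeded every start window of the gene. In Cacna2d1 the highest, chr5:16309721-16309900, had 1.53 in replicate 1 and 1.15 in replicate 2, below both sites of its paralog.

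**Figure D4:**
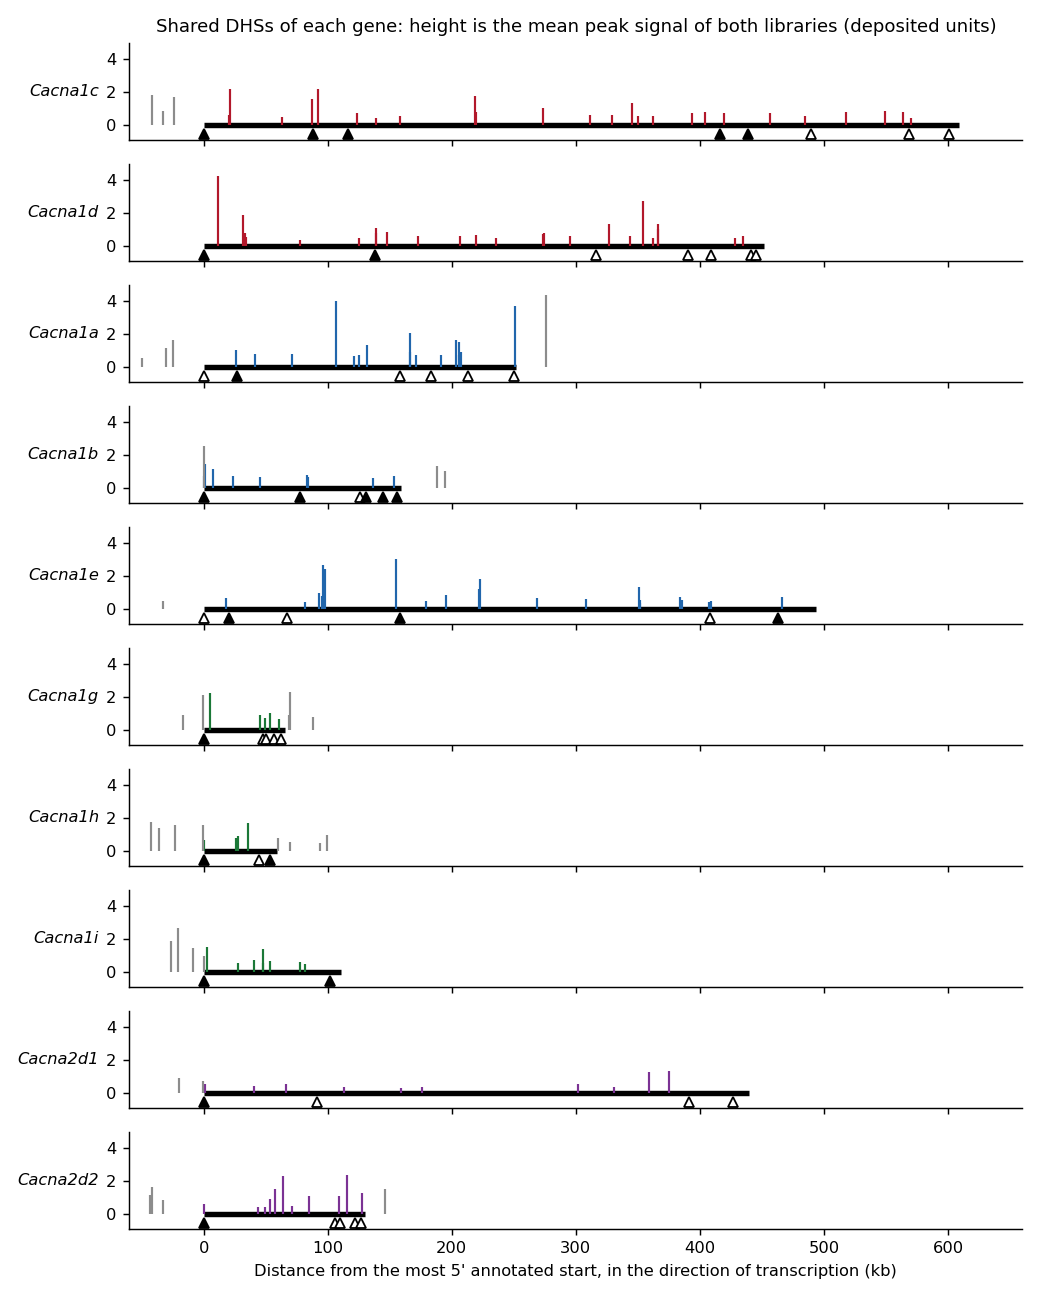
Position of each shared DHS along each gene (horizontal axis, kb from the most 5' annotated start in the direction of transcription) and its mean signal over both libraries (vertical axis, deposited units). Black bars span the genes, coloured lines are DHSs inside the gene, grey lines lie outside it, and triangles mark start windows, filled where a protein-coding transcript starts; the tallest lines stand inside or beyond Cacna1a and at 11.9 kb in Cacna1d.

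Distal DHSs, found in both libraries over 1 kb from any start of any gene and within 50 kb of a start of the member, numbered 120, a mean of 12 per member against 3.21 over all protein-coding genes. All members had some, beside 81.2% of genes, and because many starts lie along these long genes, 91 of the 120 were inside the gene itself. Within 50 kb of the most 5' start alone there were 40. The mean of 3.21 counts from any start, and no mean over all genes is given for the most 5' start alone. The numbers 12 and 3.21 thus compare genes with unlike numbers of starts. Of the 29 outside, Cacna1h had 7, the most, and Cacna1d had none. The median signal of those outside was 1.26 in replicate 1 and 1.06 in replicate 2, against 0.755 and 0.811 over all 78165 shared DHSs. The highest was chr8:84663961-84664180, downstream of Cacna1a and 1219 bp from a start of Ier2, an immediate early gene, with 4.45 in replicate 1 and 4.32 in replicate 2. Next came chr15:80266341-80266540, 20.8 kb upstream of Cacna1i and 2126 bp from a start of Rps19bp1, with 3.17 and 2.12, and chr11:94404761-94404980, 6.81 kb from the nearest start of Cacna1g, with 2.66 and 1.93. These 3 were higher in replicate 1 than in replicate 2. The highest outside Cacna1h were both in introns of Tekt4, with 2.31 and 1.15 at chr17:25476001-25476220 and 1.61 and 1.60 at chr17:25456661-25456860. Outside Cacna1c the highest, chr6:119237701-119237920 with 1.76 and 1.83, lay in an intron of Cacna2d4, 1216 bp from its start. Others were chr9:107357721-107357920 at Cacna2d2, with 2.08 and 1.24, chr2:24574721-24574920 at Cacna1b, with 1.56 and 1.15, chr5:15915041-15915280 at Cacna2d1, with 0.763 and 1.06, and chr1:154917541-154917740 at Cacna1e, with 0.354 and 0.558. Which gene such a site acts on was not measured.

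Promoter, gene-body and distal sites together made 168 distinct DHSs, 127 in introns, 25 between genes, 9 in coding exons, 5 in untranslated regions and 2 in non-coding exons. Their median signal was 0.748 in replicate 1 and 0.884 in replicate 2, against 0.755 and 0.811 over all shared DHSs. The log2 ratio of replicate 2 over replicate 1 had a median of -0.00 over the members' DHSs and -0.05 over all, with SDs of 0.50 and 0.52. It exceeded 2-fold in either direction at 6 of the 168 (3.57%), against 5.00% of all. Of those 6, 3 were at Cacna1h and 1 each at Cacna1c, Cacna1d and Cacna1e. Counted in steps, the smallest unit of signal in a library, the median was 0.63 over the members' DHSs and 0.58 over all.

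**Figure D5:**
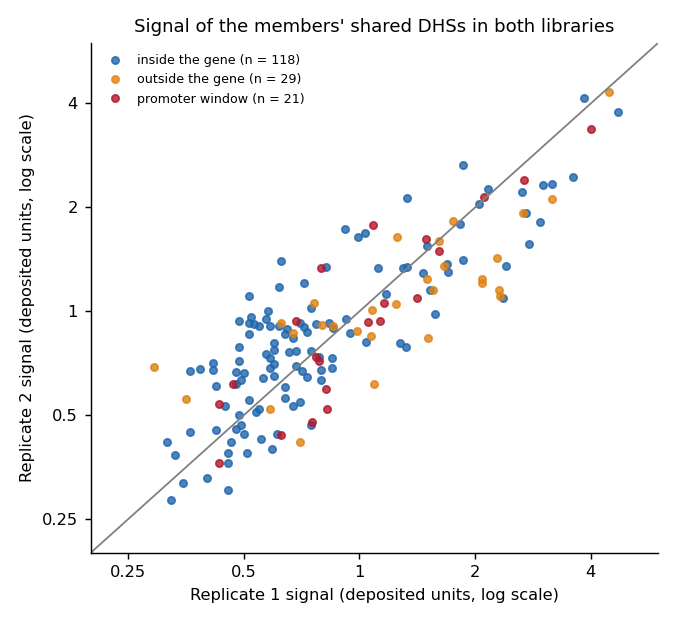
Signal of the 168 distinct DHSs of the members in replicate 2 (vertical axis) against replicate 1 (horizontal), in deposited units on log scales, coloured by place, with the line of equality. Points lie on both sides of the line, 6 of 168 differ by more than 2-fold, and the highest values in both libraries are 1 DHS outside the gene, 1 promoter-window DHS and 2 DHSs inside genes.

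The 168 DHSs held 385 footprints of replicate 1 and 537 of replicate 2. Of these, 62.1% in replicate 1 and 41.7% in replicate 2 overlapped a footprint of the other library by at least 1 bp, against 65.9% and 45.3% over all shared DHSs. The share differed between members. It was highest at Cacna1a, with 81.4% of 59 and 57.0% of 79 footprints, and lowest at Cacna2d1, with 37.0% of 27 and 25.7% of 35. Cacna1c, which has the most footprints of the L-type pair, had 40.9% and 31.8%, against 56.0% and 34.7% at Cacna1d. The alpha-2-delta paralogs again differed, with 72.2% and 52.3% at Cacna2d2. Signal differed between the extremes as well: the median gene-body signal was 0.886 in replicate 1 and 0.908 in replicate 2 at Cacna1a, and 0.401 and 0.533 at Cacna2d1. Its part in the shared footprints was not tested.

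Consensus words were searched on both strands of the DHSs, and a match describes letters, not binding. The CTCF consensus allows the E-box CAGATG inside it, so these words can match the same bases. No other word contains another. The CTCF consensus, of the insulator protein that anchors chromatin loops, matched in 15 of the 168 DHSs (8.93%), against 7.12% of all shared DHSs. A match lay wholly inside a footprint in 14 of these 15 in replicate 1 and in 15 in replicate 2, against 74.7% and 85.7% of the matching DHSs over the genome. Cacna2d2 had 5 of the 15, Cacna1c 3, Cacna1a, Cacna1h and Cacna1i 2 each, Cacna1e 1 and the other members none. RFX GTTNCCATG, of a family active in ciliated and neuronal cells, matched in 11 (6.55%), against 3.54%. AP-1 TGANTCA, the word of Fos and Jun dimers, matched in 24 (14.3%), against 10.1%, and 6 of these were at Cacna1d. An RFX match lay inside a footprint in 3 of the 11 in replicate 1 and in 4 in replicate 2. Over the genome it did so in 21.4% and 32.9% of the matching DHSs. For AP-1 the counts were 3 and 1 of the 24, against 3.20% and 4.99%. For the remaining words the shares were 20.2% against 19.6% for the NFI half-site TTGGCA, 39.9% against 40.3% for the E-boxes CAGATG and CAGCTG, and 5.95% against 5.74% for SP/KLF GGGGCGGGG. An NFI match lay inside a footprint in 4 of 34 DHSs in replicate 1 and in 2 in replicate 2, against 13.2% and 28.6%. For the E-boxes the counts were 6 and 12 of 67, against 13.4% and 18.0%. For SP/KLF they were 4 and 4 of 10, against 37.1% and 56.5%. The rarest words matched in 1 to 3 DHSs each. The shares were 1.79% against 0.994% of all shared DHSs for MEF2, 1.79% against 0.546% for EGR GCGTGGGCG and 1.19% against 0.446% for the REST half-site TTCAGCACC. They were 0.595% against 0.971% for NRF1 GCGCATGCG and 0.595% against 1.19% for CRE TGACGTCA. The RefSeq promoter table, 250 bases before to 50 after a start, had 10 entries for 7 members. In it, SP/KLF matched in 2 of the 10, at Cacna1b and Cacna2d1, against 11.4% of 32851 promoters. The E-boxes matched in 5 of the 10, against 30.6%. These were entries of Cacna1b, Cacna1c and Cacna1d. Cacna1c had more than 1 of them, so fewer genes than entries matched. NFI matched in 2, at Cacna1d and Cacna1e, against 14.1%. The other words matched in none of the 10, among them CTCF, RFX and AP-1, which matched in 0.557%, 1.93% and 7.81% of all promoters.

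A few of the higher intronic DHSs are shown, chosen after their values were seen, because they hold a searched word inside a footprint or, at Cacna1e, are the highest of the gene. At Cacna1a (chr8:84494801-84495000, plus strand) capitals mark the RFX word, which lay inside a footprint in both libraries. At Cacna1e (chr1:154788201-154788360, minus strand) and Cacna2d2 (chr9:107463621-107463820, plus strand) capitals mark the CTCF consensus, also inside a footprint in both libraries. The Cacna2d2 stretch holds an E-box CAGCTG as well, left in lower case, inside a footprint in both libraries. At the highest Cacna1e site (chr1:154729681-154729840, minus strand) none of the words matched in the stretch shown, and capitals mark bases inside footprints of both libraries. All 4 are intronic and come from the RefSeq GRCm38.p6 assembly.
Cacna1a intron: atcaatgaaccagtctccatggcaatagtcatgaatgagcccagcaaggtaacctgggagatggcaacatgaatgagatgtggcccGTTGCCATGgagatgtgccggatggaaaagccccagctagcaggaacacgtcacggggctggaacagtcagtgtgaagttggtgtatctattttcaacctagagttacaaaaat
Cacna1e intron, CTCF: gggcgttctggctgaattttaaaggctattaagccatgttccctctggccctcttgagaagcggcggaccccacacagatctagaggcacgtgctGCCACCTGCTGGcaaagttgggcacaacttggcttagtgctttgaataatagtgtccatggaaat
Cacna2d2 intron, CTCF: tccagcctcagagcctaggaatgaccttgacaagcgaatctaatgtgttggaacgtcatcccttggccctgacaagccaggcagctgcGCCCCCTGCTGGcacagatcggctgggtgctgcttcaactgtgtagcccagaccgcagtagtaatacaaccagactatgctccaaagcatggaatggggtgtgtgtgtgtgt
Cacna1e intron, highest: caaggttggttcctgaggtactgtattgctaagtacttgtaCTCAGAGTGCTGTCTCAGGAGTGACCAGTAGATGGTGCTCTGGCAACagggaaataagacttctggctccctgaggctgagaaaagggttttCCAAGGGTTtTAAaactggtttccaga

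The cleavage-rate segments were set beside the peaks at the start windows. Over all 52 windows, 8.95% of bases in replicate 1 and 12.0% in replicate 2 were listed at a false discovery rate of at most 0.05, against 12.3% and 15.4% over the start windows of all protein-coding genes. In the 14 windows with a peak in both libraries the median share was 20.1% and 20.7%. Of the 28 windows with no peak, 0 held a listed segment in replicate 1 and 3 in replicate 2, covering at most 0.750% of a window. The lowest rate in any window was 4.67e-32, in replicate 2 at the coding exon peak of Cacna1a.

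Of the 16 other calcium channel subunit genes, 12 had a promoter DHS in both libraries (75%, against 62.7% of protein-coding genes), with a median signal of 1.31. None was found in either library at Cacna1f, a pore of retinal cells, at Cacng1, the gamma subunit of the skeletal muscle channel, or at Cacng5, and Cacng6 had a peak in replicate 2 alone. The 3 highest were Cacng2, the AMPA receptor partner stargazin, with 2.45 in replicate 1 and 2.59 in replicate 2, Cacna1s, the skeletal muscle pore, with 2.57 and 2.46, and Cacnb1, a beta subunit, with 1.40 and 2.26. No other gene starts inside the windows of Cacna1s, while those of Cacng2 and Cacnb1 each hold a start of a further annotated gene. The value at Cacna1s is for accessibility and not for transcripts. Of the 4 muscle markers, 1 had a promoter DHS in both libraries, Myh6 had a peak in 1 library, and Acta1 and Actc1 had none; the summed signal of the list was 1.90 in replicate 1 and 1.66 in replicate 2.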

How the data were processed

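DNase-seq was measured in 2 libraries of the left cerebral cortex, taken as 2 mice of 1 group. The authors derived, as the deposited notes on the files state, peaks and cleavage-rate segments from each library's own alignments to mm10, without pooling, and footprints from the alignments and those segments; no aligner or caller is named there. Each library has 2 deposited peak lists, and the larger was used. The peak value is the authors' deposited signal, a whole multiple of 0.00771 in replicate 1 and 0.00498 in replicate 2 (within 0.0103 of a step); the factor is not stated, so depth is unknown. The deposited segments carry a false discovery rate (q-value) of at most 0.05, and the deposited footprints the constant 0.01, so footprints could not be ranked.

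Genes were those of GENCODE M21 (55413, without the mitochondrial ones), and peak coordinates lay within the GRCm38.p6 chromosome lengths. A promoter peak overlapped by at least 1 bp the 1 kb on either side of a start, a window that can also hold a neighbour's peak. A shared DHS is a merged region with a peak of each library, and midpoints assigned it to gene bodies or distal DNA; 1 region of Cacna2d1 counted as both promoter and gene body. Its signal per library was the highest peak there. Values are given per library or as mean ± SD over n = 2; arithmetic across libraries with different steps assumes that the authors' scaling makes signals comparable. CpG ratios used the bases from 500 bp before the first to 500 bp after the last start of a window. The named genes were all 10 members with their highest promoter, gene-body and distal DHS, and the other subunit genes with no promoter DHS or among the 3 highest. The members and lists were chosen with earlier results of these data known. Functions were tested on simulated data. Python 3.11.15, NumPy 2.4.6, pandas 2.3.3 and Matplotlib 3.10.9 were used. Alternatives covered the peak list, peak number, overlap, window, start set, distance, replicate, footprint overlap, signal scale and false discovery rate threshold.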

Additional observations from a re-analysis of the deposited data

How the results depend on the processing

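The number of members with a promoter DHS in both libraries was 9 with the stricter lists (Cacna1e lost), 9 at starts of protein-coding transcripts, 6 at the most 5' start, and 10 under each of the other alternatives, including either library alone. The median promoter signal of 1.40 became 1.55 with the stricter lists, 1.16 with windows of 500 bp, 1.53 with windows of 2 kb, 1.27 at the most 5' start and 1.07 at protein-coding starts, and lay between 1.42 and 1.45 with 1 library left out. Of 54 values recomputed for single members, 49 moved by less than the SD between libraries and 5 by more. Cacna1a and Cacna2d2 moved by more at protein-coding starts, and Cacna2d2 also at the most 5' start. Cacna1c did so with windows of 500 bp and Cacna1i with windows of 2 kb. The 54 leave out members that lost the peak in 1 or both libraries. These were Cacna1a, Cacna1c, Cacna1d and Cacna1e at the most 5' start. Cacna1e was also left out at protein-coding starts and with the stricter lists. The 119 gene-body DHSs became 58 with the stricter lists, where fewer peaks enter, and between 132 and 283 in 1 library alone. The 120 distal DHSs became 66 with the stricter lists, 51 within 20 kb, 40 at the most 5' start, and between 132 and 275 in 1 library alone; the larger values are those of replicate 2. Leaving out gene-body DHSs at starts of other genes, an alternative chosen after seeing the data, gave 115. When 50% of both footprints had to overlap, the mean share in both libraries was 36.1% in place of 51.9%. The median log2 library ratio of -0.00 became 0.63 in whole steps, because the steps of the libraries differ. The share of start-window bases at a false discovery rate of at most 0.01 was 8.22% in place of 10.5%. No paired analysis was possible because both libraries belong to 1 group. With unknown depth, a missing peak says only that none was called.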

Other observations

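The word content of the members' DHSs moved with the difference between the libraries, a pattern looked for after the values were seen. The 15 DHSs with a CTCF match had a median log2 ratio of replicate 2 over replicate 1 of -0.36, and 12 of them were lower in replicate 2. The 153 DHSs without a match had a median of 0.04, and 72 of them were lower in replicate 2. The median over all 5569 shared DHSs with a CTCF match was -0.38, with 80.1% lower in replicate 2, against -0.03 and 52.2% over the 72596 without. Examples at the members were chr17:25397921-25398120 in an intron of Cacna1h, with 2.36 in replicate 1 and 1.10 in replicate 2, chr6:119220381-119220620 beside Cacna1c, with 2.33 and 1.11, and chr6:119104381-119104560 inside Cacna1c, with 2.76 and 1.57. The 3 exceptions were chr6:118626262-118626580 in Cacna1c, with 0.424 in replicate 1 and 0.453 in replicate 2, and a pair of sites in Cacna1a, with 2.04 and 2.05 at chr8:84554381-84554580 and 1.50 and 1.54 at chr8:84594501-84594720.

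Other words moved too, in both directions. SP/KLF went with CTCF, with a median of -0.14 in the 10 DHSs that hold it, 9 of them lower in replicate 2, against 0.03 in the 158 without. Over all shared DHSs the SP/KLF medians were -0.16 with the word and -0.05 without, with 67.7% and 53.3% lower in replicate 2. AP-1, NFI, RFX and the E-boxes went the other way. The 24 DHSs of the members with AP-1 had a median log2 ratio of 0.37, with 9 lower in replicate 2, and the 144 without it had -0.05, with 75 lower. Over all shared DHSs the medians for AP-1 were 0.20 with the word and -0.08 without, with 35.2% and 56.3% lower in replicate 2. At the members the medians were 0.22 with NFI and -0.06 without, 0.19 with RFX and -0.06 without, and 0.18 with an E-box and -0.08 without. Over all shared DHSs the medians with and without the word were 0.10 and -0.09 for NFI and 0.18 and -0.06 for RFX. For the E-boxes they were 0.05 and -0.12. For these words, as for CTCF, the directions at the members were thus those of the whole genome. MEF2, EGR, NRF1, CRE and REST matched in at most 3 DHSs of the members each. Among them EGR and NRF1 kept the sign of the median over all shared DHSs with the word, and the others did not. The medians at the members were -0.23 against 0.24 for MEF2, 0.56 against -0.22 for CRE and 0.17 against -0.06 for REST. With 2 libraries, the animals, the depth of the libraries and the preparation of the tissue cannot be told apart.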
